A study of Mus musculus with 17 samples.

Results

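The comparison covers periprostatic fat, which surrounds the prostate, of obese male mice that were put on calorie restriction without leaving the high-fat diet. It sets the 5 arrays of the restricted mice against the 6 arrays of mice that kept eating the same diet freely, which are 11 of the 17 arrays of the study, across all 22180 genes measured. A gene was taken as 1 probe set that the annotation gives exactly 1 symbol, the brightest where a gene had several. All mice were male C57BL/6J from The Jackson Laboratory (strain C57BL/6 in the sample labels), with 1 Affymetrix Mouse Gene 2.0 ST array for each mouse. The unrestricted group (HFD, n = 6) ate a diet with 60 kcal% fat freely from 6 weeks of age until 25 weeks. The restricted group (HFD_CR, n = 5) ate that diet freely for 12 weeks. For the last 7 weeks it was given, each day, 70% of the amount the unrestricted group ate, a restriction of 30%. A low-fat group (LFD, n = 6) ate 10 kcal% fat freely for the same time, and its levels are printed beside the others as a reference. The restricted mice therefore share the high-fat diet and the age with their controls, and they differ from the low-fat mice in both the diet and the amount eaten. The labels give neither the hour of harvest nor the time since the last meal, so a timed daily meal and the lower intake cannot be told apart.

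White fat stores energy as triglyceride in adipocytes and holds macrophages, fibroblasts, vessels and stem-like progenitors between them. In obesity, macrophages gather around dying adipocytes, take up their lipid into enlarged lysosomes and divide in place, while fibroblasts lay down collagen. Calorie restriction shrinks adipocytes. When the food is given once a day and eaten quickly, it also imposes long daily fasts, raises corticosterone and can shift the phase of the clock genes of peripheral tissues.

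Values are log2 array signals, so a difference of 1 is a 2-fold change. Array medians were 7.06 to 7.1 in the restricted mice and 7.04 to 7.15 in the unrestricted mice. Pairs of arrays correlated across genes with a median of 0.994 within the restricted group, 0.995 within the unrestricted group and 0.986 between them. Some arrays held signal of other tissue. The mean of 18 skeletal muscle genes was 9.15 in restricted mouse 2 and 7.07 to 7.14 in the other 4 restricted mice, and it was 8.11 in unrestricted mouse 6. Prostate and accessory gland epithelium was read from 19 genes, which averaged 7.17 in unrestricted mouse 3 and 6.01 to 6.25 in the other 5. The 14 male germ cell genes averaged 9.21 in restricted mouse 1 and 7.28 to 7.56 in the rest of its group. The adipocyte markers Adipoq, Lpl, Cd36 and Pparg all had mean signals above 11 in both groups. Counts were therefore recomputed with either of 2 sets of 4 arrays left out, first restricted mouse 2, unrestricted mouse 3 and low-fat mice 2 and 3, and second restricted mice 1 and 2 with unrestricted mice 3 and 6. In bulk tissue, fewer cells of a type and less RNA per cell cannot be told apart.

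With a limma fit and Benjamini-Hochberg adjustment over the 22180 genes, 4213 genes (19%) passed an adjusted p of 0.05. Of these, 1705 (7.69%) were higher in the restricted mice and 2508 (11.3%) were lower. Every difference below is restricted minus unrestricted on the log2 scale, with its standard error, and "rose" or "fell" is used only of genes that passed. The falls were larger than the rises: 504 genes (2.27%) fell at least 1.5-fold and 190 (0.857%) rose that much. At 2-fold the counts were 128 (0.577%) and 30 (0.135%). The median difference over all genes was -0.002. In 3035 genes (13.7%) the 2 groups did not overlap, with all restricted mice higher in 1203 (5.42%) and all lower in 1832 (8.26%). Calls rose with brightness, from 2.47% of genes in the dimmest of 4 equal bins to 36.6% in the brightest. Among 1926 long non-coding RNAs 108 rose and 36 fell, so that 7.48% were called, at a median signal of 6.3. Among 18961 protein-coding genes 1528 rose and 2417 fell, so that 20.81% were called, at a median signal of 7.89.

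**Figure D1:**
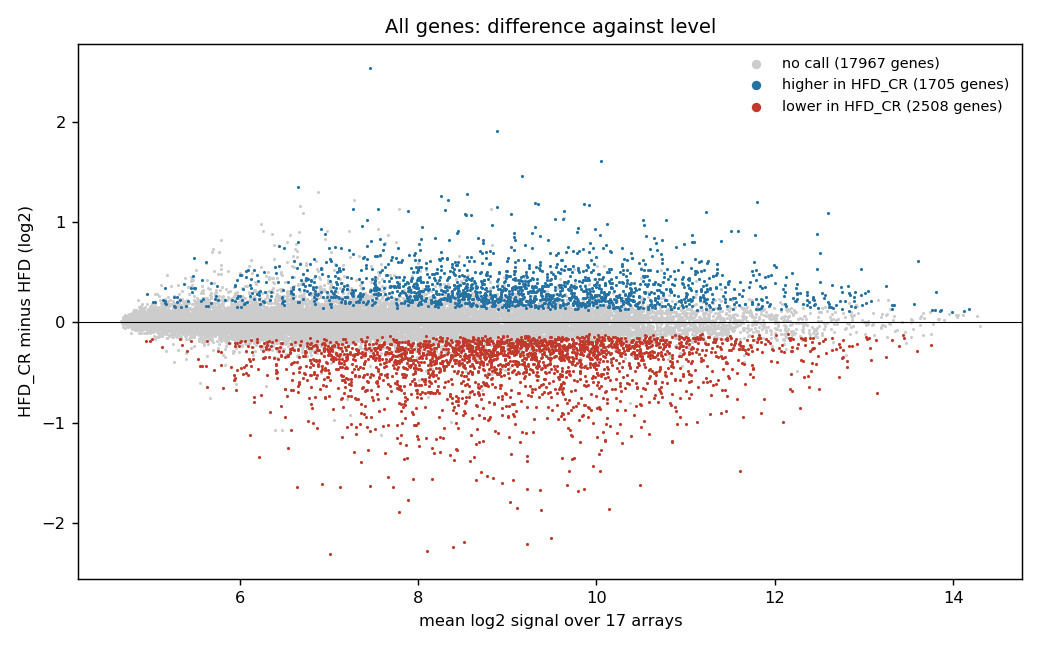
Each point is 1 of 22180 genes, with its mean log2 signal over 17 arrays on the x axis and the log2 difference HFD_CR minus HFD on the y axis. Blue points are the 1705 genes that rose, red points the 2508 that fell and grey points the genes with no call. The red cloud reaches further from 0 than the blue one, and calls thin out at low signal.

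Among the 12 largest falls were chemokine, protease and macrophage genes. Timp1, a secreted inhibitor of matrix metalloproteinases, measured 8.11, 7.31, 7.51, 7.29 and 7.32 in restricted mice 1 to 5 and 9.04 to 10.35 (median 9.99) in the unrestricted mice. The groups were apart, and mouse 1 was the highest of the restricted mice. Timp1 fell by 2.27 ± 0.22 (adjusted p = 6.47e-06), to 0.207 of the unrestricted signal, and the low-fat mice averaged 6.92 ± 0.23 (SD, n = 6). Itgad, an integrin subunit of macrophages, fell by 2.23 ± 0.31. Its restricted mice measured 9.6, 8.5, 7.02, 7.98 and 7.89 against 9.98 to 10.81 (median 10.5) without restriction. Dhrs9, a retinol dehydrogenase, fell by 2.18 ± 0.24, and Adam8, a membrane-bound metalloproteinase of leukocytes, fell by 1.87 ± 0.23. Rnf128, a ubiquitin ligase, fell by 1.89 ± 0.39, Slc37a2, a sugar phosphate transporter of macrophages, by 1.84 ± 0.19, and Tnip3, an inhibitor of NF-kB signalling, by 1.79 ± 0.23. Rgs1, a regulator of G protein signalling in leukocytes, fell by 1.76 ± 0.27. All of these were lower in every restricted mouse than in every unrestricted one.

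The largest rises were of a mixed kind. Orm3, an acid glycoprotein gene, measured 9.04, 9.81, 9.32, 8.47 and 8.64 in the restricted mice and 6.65 to 7.68 (median 7.17) in the unrestricted mice. Orm3 rose by 1.91 ± 0.21 (adjusted p = 1.18e-05), 3.75-fold, and the low-fat mean was 10.46 ± 0.25 (SD, n = 6). Fam13a, a regulator of adipocyte insulin signalling and a locus tied to fat distribution, measured 9.69, 10.66, 10.97, 10.7 and 11.37 against 8.78 to 9.64 (median 8.99). Its rise was 1.60 ± 0.22 (adjusted p = 4.89e-05), and the low-fat mice averaged 10.49 ± 0.20. The lowest restricted mouse for Fam13a, mouse 1, lay 0.05 above the highest unrestricted one. Timp4, the metalloproteinase inhibitor that adipocytes express, rose by 1.20 ± 0.12 from a mean of 10.96 to 12.16, the opposite sign to Timp1. Vnn1, a pantetheinase that recycles vitamin B5, rose by 1.18 ± 0.15, and Fcamr, a receptor for IgM and IgA, by 1.28 ± 0.16. Sly and Astx5 also stood among the 12 largest rises, at 2.53 ± 0.39 and 1.26 ± 0.32. Both belong to multi-copy families whose copies share probes, so their signals cannot be assigned to 1 gene. Sly lay below the array median in all unrestricted mice, and its difference was 1.28 once lower signals were raised to each array's median.

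**Figure D2:**
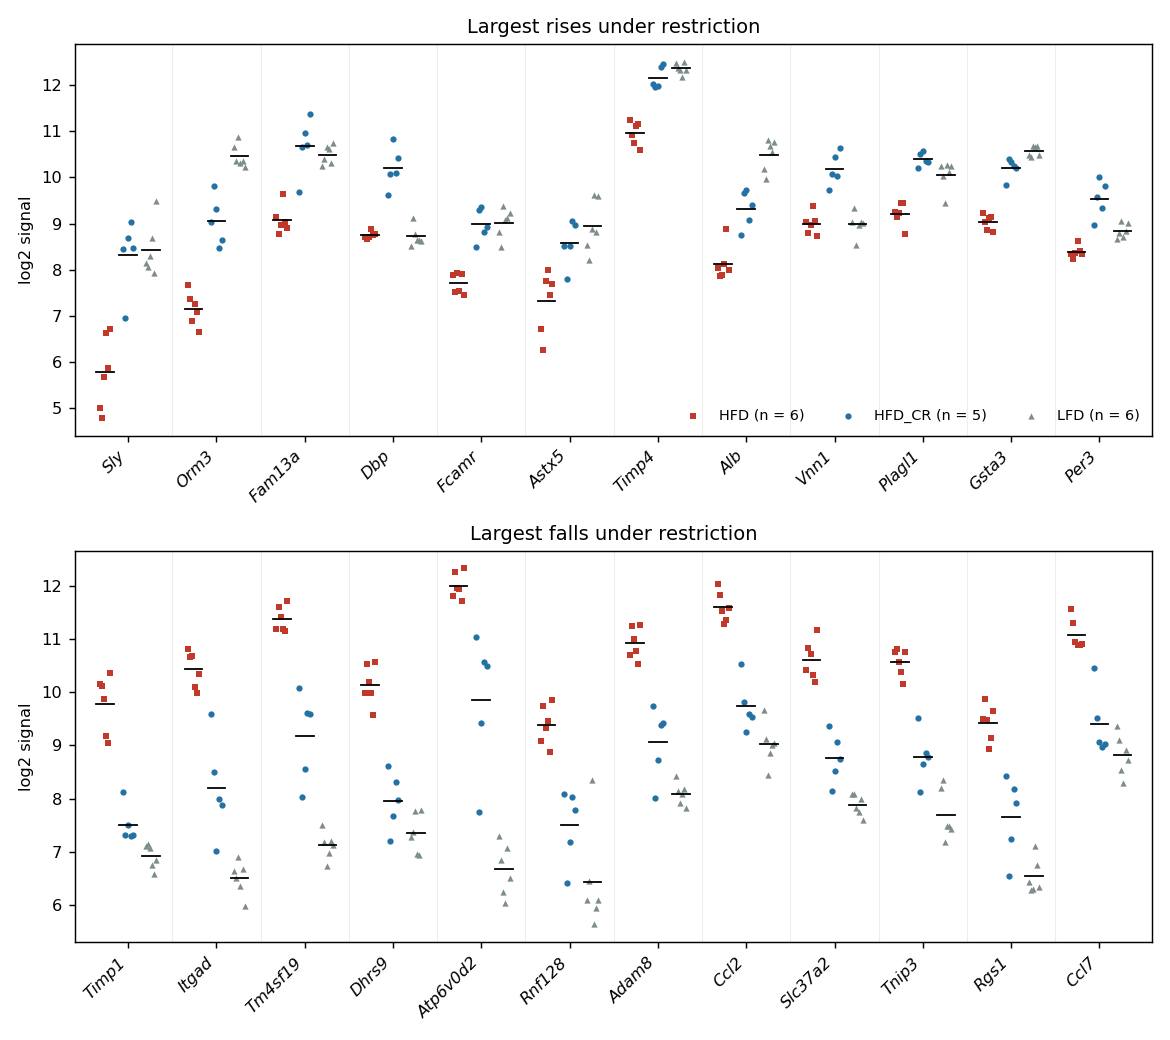
Points give the log2 signal of each mouse for the 12 largest rises (top) and the 12 largest falls (bottom), with red squares for HFD (n = 6), blue circles for HFD_CR (n = 5) and grey triangles for LFD (n = 6), and black bars for group means. In the lower panel every HFD_CR mouse lies below every HFD mouse, and in the upper panel Alb and Astx5 are the genes whose HFD and HFD_CR mice overlap.

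Lipid-associated macrophages, the lipid-loaded cells that surround dying adipocytes, had the lowest list median of the 49 gene lists described. Of 19 measured genes 16 fell and none rose, with a median of -0.90. Atp6v0d2, a subunit of the lysosomal proton pump, measured 11.04, 7.75, 9.42, 10.56 and 10.5 in the restricted mice against 11.72 to 12.32 (median 11.95) in the unrestricted mice. The groups did not overlap, but the restricted mice were widely spread and mouse 2 lay far below the others. Atp6v0d2 fell by 2.15 ± 0.42 (adjusted p = 0.00127), and the low-fat mean was 6.67 ± 0.49 (SD, n = 6). Trem2, the lipid-sensing receptor that these cells depend on, measured 10.68, 9.01, 9.91, 10.47 and 10.35 against 11.34 to 11.88 (median 11.5). Trem2 fell by 1.48 ± 0.22 (adjusted p = 0.0001), and the low-fat mice averaged 8.49 ± 0.17. Tm4sf19, a membrane protein of multinucleated macrophages, fell by 2.20 ± 0.27, and Ctsk, the collagen-cutting cathepsin K, fell by 1.67 ± 0.17. Itgax, which encodes CD11c, fell by 1.59 ± 0.24. Gpnmb, a glycoprotein of lipid-laden macrophages, fell by 1.48, and Lgals3, the galectin that marks them, by 1.01. The 3 members that did not pass were Lpl at 0.03, Cd36 at 0.04 and Mcoln3 at -0.10; the first pair are also abundant adipocyte genes.

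The spread among the restricted mice was itself wide in this list. The mean over its 19 genes was 11.37, 10.46, 10.84, 11.22 and 11.11 in restricted mice 1 to 5, against 11.77 to 12.12 in the unrestricted mice and 10.02 to 10.32 in the low-fat mice. Mouse 2 was the lowest restricted mouse for 13 of the 19 genes and mouse 1 the highest for 13. For 15 of 19 genes the SD was larger in the restricted group than in the unrestricted group (78.9%), compared with 40.5% of all genes. Restricted mouse 2 was also the mouse with high skeletal muscle genes and mouse 1 the one with high germ cell genes, and their part in the spread was not tested. Without mice 1 and 2 and unrestricted mice 3 and 6, or with any 1 of the 11 arrays left out, 15 or 16 members still fell.

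General macrophage genes went the same way. Of 16 measured, 14 fell, 1 rose and the median was -0.58. Adgre1, which encodes the macrophage marker F4/80, measured 11.21, 10.89, 10.6, 10.9 and 10.84 against 11.63 to 12.08 (median 11.89). Adgre1 fell by 0.99 ± 0.14 (adjusted p = 0.000103). Cd68, a lysosomal glycoprotein of macrophages, fell by 0.99 ± 0.15, and the activating IgG receptors Fcgr4 and Fcgr1 fell by 1.56 ± 0.16 and 1.48 ± 0.15. The member that rose was Mertk, a receptor for the uptake of apoptotic cells, at 0.39, and it was singled out after its value was seen. Fewer markers of macrophages that reside along vessels passed. Of 13 of them, 3 fell (23.1%, against 11.3% of all genes that fell), with a median of -0.01. Folr2, a folate receptor, fell by 0.51 ± 0.10, Mrc1, the mannose receptor, by 0.51 ± 0.08, and Pf4, a chemokine, by 0.42 ± 0.08. This list shares 2 genes with the general macrophage list, and Mrc1 is counted in both. Lyve1, the hyaluronan receptor of these cells, measured 10.38, 10.6, 10.97, 10.32 and 10.55 against 10.06 to 10.94, with a difference of 0.09 (adjusted p = 0.7597). Timd4, a phosphatidylserine receptor, also gave 0.09. Whether the 2 macrophage lists differ from each other was not tested.

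**Figure D3:**
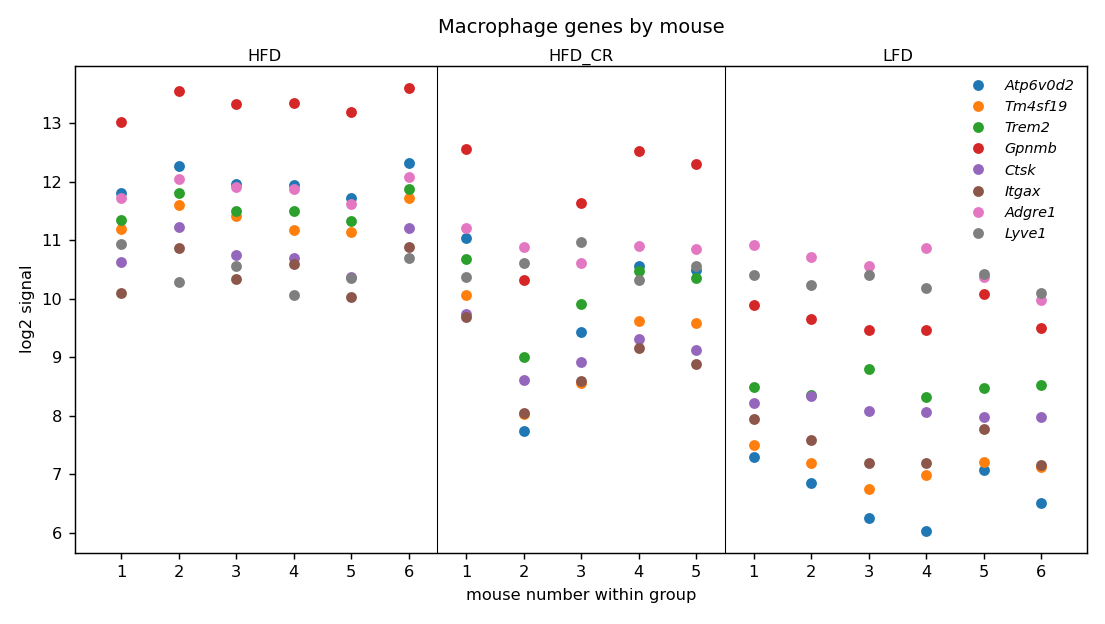
Log2 signals of 8 macrophage genes are plotted for each mouse, numbered within its group, with HFD at the left, HFD_CR in the middle and LFD at the right. Atp6v0d2, Tm4sf19, Trem2, Gpnmb, Ctsk and Itgax fan out among the HFD_CR mice, with mouse 2 at or near the bottom for each, while Lyve1 stays in the same range in all 3 groups.

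Genes of the lysosome, the compartment in which such macrophages break down lipid, were lower almost throughout. Of 23 measured, 21 fell, with a median of -0.31, and 5 of them are also in the lipid-associated macrophage list. Ctss, cathepsin S, fell by 1.19 ± 0.18, Gla, the galactosidase that clears glycolipids, by 0.96 ± 0.10, and Lipa, the acid lipase that frees cholesterol and fatty acids from esters, by 0.90 ± 0.11. Lipa measured 12.09, 11.28, 11.61, 11.96 and 11.83 against 12.47 to 12.84 (median 12.64), so the groups were apart and mouse 2 was again the lowest. The pair with no call were Mcoln1 at 0.03 and Gaa at 0.04. Transcription factors and adaptors of autophagy moved less: of 20 genes 8 fell and 1 rose, the median was -0.10, and Mitf, a factor that drives lysosomal genes, fell by 0.33 ± 0.07. That count depended on single mice, since 4 or 5 fell without restricted mouse 2, 3 or 5 or unrestricted mouse 2, and 2 fell without restricted mice 1 and 2 and unrestricted mice 3 and 6 together. Bnip3, a mitophagy receptor that hypoxia induces, rose by 0.43 ± 0.09.

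Signals that recruit monocytes were among the strongest falls. Ccl2, the main monocyte-attracting chemokine of fat, measured 10.53, 9.81, 9.24, 9.59 and 9.54 in the restricted mice and 11.29 to 12.03 (median 11.55) in the unrestricted mice. Ccl2 fell by 1.86 ± 0.21 (adjusted p = 1.36e-05), to 0.276 of the unrestricted signal, and the low-fat mean was 9.03 ± 0.39 (SD, n = 6). Ccl7, a related chemokine, fell by 1.68 ± 0.24, and Ccl8, another, fell by 1.37 ± 0.21. Il1rn, the secreted antagonist of interleukin 1, fell by 1.56 ± 0.18, and Tnf, the inflammatory cytokine, fell by 0.71. In all, 16 of 30 cytokine and chemokine genes fell and 1 rose, with a median of -0.44. The gene that rose was Cxcl9, an interferon-gamma-induced chemokine for T cells, at 0.47, noted after its value was seen. Il6 showed no call at -0.08, with all mice of both groups between 5.1 and 5.46, near the floor of the array.

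Innate immune effectors followed. Of 15 complement genes 8 fell and 1 rose, with a median of -0.30. The receptors C3ar1 and C5ar1 fell by 1.11 ± 0.13 and 0.92 ± 0.12, and C1qa and C1qc, chains of the C1q molecule that macrophages make, fell by 0.70 ± 0.07 and 0.65 ± 0.10, while C2 rose by 0.62. Of 13 genes of antigen presentation by MHC class II, 9 fell and none rose (median -0.39), including H2-DMb1 by 0.58 ± 0.12 and H2-DMa by 0.42 ± 0.09, which load peptides, and the co-stimulator Cd80 by 0.43 ± 0.13, a call lost without restricted mouse 4 or 5, unrestricted mouse 1 or the second set of 4 arrays (adjusted p up to 0.105). Of 21 type I interferon response genes 4 fell, led by Oasl1 at -0.61 ± 0.16, with a median of -0.21. Their share of calls equals the 19% of all genes. It is below the 27.1% of all genes at levels of 7.53 to 9.13, and the list mean was 8.22 in the restricted mice.

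Few lymphocyte and granulocyte markers passed, which does not show a lack of change. Calls covered 6.2% of T cell, 6.7% of B and plasma cell and 16.7% of NK and granulocyte genes, against 19% of all genes. List means in the restricted mice were 7.47 for T cells, 7.19 for granulocytes and 6.98 for NK cells. Among all genes at levels of 6.28 to 7.53, 9.85% passed. B and plasma cell genes had a median SD of 0.32 and 0.39 in the 2 groups, against 0.094 and 0.11 for all genes. Of 16 T cell genes only Il7r, the interleukin 7 receptor, fell, and the others had a narrow range from -0.22 to 0.07. Il7r measured 10.55, 8.72, 9.61, 10.16 and 10.04 against 11.21 to 11.81 (median 11.4), and fell by 1.66 ± 0.29 (adjusted p = 0.000496). Its order across the restricted mice, with mouse 1 highest and mouse 2 lowest, was that of Trem2, noted after the values were seen. The T cell receptor chain Cd3e differed by -0.01. Which cells the Il7r signal came from was not tested. Of 15 B and plasma cell genes only Sdc1, a proteoglycan that epithelial and stromal cells also make, fell, by 0.52 ± 0.09, or by 0.33 with probe sets averaged. Among 12 NK and innate lymphoid genes 1 rose and 1 fell, namely Rora at 0.25 ± 0.06 and Gzma at -0.27 ± 0.08, the latter below the array medians and with no call without restricted mouse 1, 2 or 3, unrestricted mouse 4 or either set of 4 arrays. Of 18 genes of neutrophils, mast cells and eosinophils, Kit, the stem cell factor receptor, rose by 0.86 ± 0.12 while the mast cell proteases Cpa3, Mcpt4 and Tpsb2 had no call, at -0.31, -0.39 and -0.13. Ccr3 and S100a8, an eosinophil receptor and a neutrophil protein, fell, by 0.65 and 0.55, but at signals below the array medians, and raising these to the medians left differences of 0.02 and -0.10.

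Genes of cell division fell as a body. Of 36 measured, 35 fell and none rose, with a median of -0.75. Only Tyms did not pass, at -0.20 (adjusted p = 0.07518). Mki67, which encodes the Ki-67 protein of dividing cells, measured 8.44, 8.24, 8.01, 8.2 and 7.97 in the restricted mice and 9.19 to 9.88 (median 9.51) in the unrestricted mice. Mki67 fell by 1.33 ± 0.12 (adjusted p = 4.37e-06), to 0.396 of the unrestricted signal, and the low-fat mice averaged 8.13 ± 0.19 (SD, n = 6). Top2a, the topoisomerase of replicating chromosomes, measured 7.55, 7.2, 6.94, 7.15 and 6.99 against 7.93 to 8.86 (median 8.55), and fell by 1.30 ± 0.14. Ccna2 and Ccnb2, the cyclins of S phase and mitosis, fell by 1.27 ± 0.13 and 1.21 ± 0.17. Every restricted mouse was below every unrestricted one for 32 of the 36 genes, against 8.26% of all genes. Here the restricted mice were the tighter group, with a larger SD than the unrestricted mice for only 3 of 36 genes, although mouse 1 was the highest of them for 25. With any array or the arrays with other tissue left out, 34 to 36 members fell.

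The promoters of these genes were read for the cell cycle element, the letters TTTGAA on either strand, by which repressor complexes hold mitotic genes silent in resting cells. The windows ran from 250 bases before the annotated start to 50 after it in the RefSeq annotation of GRCm38.p6. Promoters were at hand for 31 of the 36 genes, in 32 windows, and 16 windows of 15 genes (50%) held the element, against 17.9% of all 32851 windows. The 3 shown are those of the genes with the largest falls among the 15, 60 bases each, 5′ to 3′ on the gene's strand, with the element or its reverse complement in capitals. They lie at chr7:135716461-135716520 (minus strand), chr11:99024190-99024249 (minus) and chr9:70421687-70421746 (minus).
Mki67: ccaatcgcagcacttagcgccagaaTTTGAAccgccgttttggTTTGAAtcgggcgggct
Top2a: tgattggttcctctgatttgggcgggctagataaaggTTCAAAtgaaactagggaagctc
Ccnb2: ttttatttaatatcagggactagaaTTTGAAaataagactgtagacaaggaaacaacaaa
The element is short, occurs 2 times in the Mki67 stretch, and a match here is a description of the letters and not a shown binding site. The motifs in this and the later promoters were chosen after the values were seen.

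Extracellular matrix genes fell next to the inflammatory ones. Of 35 measured, 24 fell and 2 rose, with a median of -0.44. Lum, the collagen-binding proteoglycan lumican, measured 10.26, 9.47, 9.81, 9.85 and 9.65 in the restricted mice and 10.82 to 11.43 (median 11.08) in the unrestricted mice, and fell by 1.31 ± 0.13 (adjusted p = 6.47e-06). Col1a1, the main chain of type I collagen, measured 10.93, 10.65, 10.49, 10.54 and 10.38 against 11.27 to 11.66 (median 11.46). Col1a1 fell by 0.88 ± 0.10 (adjusted p = 1.19e-05), and the low-fat mean was 10.57 ± 0.16 (SD, n = 6). Col12a1, a fibril-associated collagen, fell by 1.05 ± 0.14, Col6a3, the chain from which endotrophin is cut, by 0.94, and Col3a1 by 0.75. Mmp3, the metalloproteinase stromelysin, fell by 1.64 ± 0.15, or by 1.19 once lower signals were raised to the array medians. The 2 that rose were Timp3, an inhibitor of metalloproteinases, by 0.81, and Mmp9, a gelatinase, by 0.59. Restricted mouse 1 was the highest of its group for 25 of the 35 genes.

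Progenitor and fibroblast markers went both ways, with 5 of 19 rising and 6 falling and a median of -0.06. Sfrp4, a secreted Wnt inhibitor, measured 7.45, 7.76, 7.55, 7.09 and 7.05 against 7.94 to 9.26 (median 8.62), and fell by 1.15 ± 0.19 (adjusted p = 0.000303). Clec11a, a growth factor of stromal cells, fell by 0.59 ± 0.11 and Icam1, an adhesion molecule, by 0.51 ± 0.09. Fmo2, a flavin monooxygenase, rose by 0.58 ± 0.14. The surface receptor Pdgfra, common to these cells, had no call at -0.06. The number that fell was 3 without unrestricted mouse 6.

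Adipocyte identity genes rose modestly. Of 18 measured, 12 rose and 2 fell, with a median of 0.27. Slc2a4, the insulin-driven glucose transporter GLUT4, measured 10.58, 10.77, 10.82, 10.81 and 11.04 in the restricted mice and 9.92 to 10.41 (median 10.09) in the unrestricted mice. Slc2a4 rose by 0.69 ± 0.10 (adjusted p = 7.04e-05), 1.61-fold, and the low-fat mean was 11.25 ± 0.16 (SD, n = 6). Klf15, a zinc-finger factor of adipocyte and glucocorticoid programs, measured 8.47, 8.93, 9.08, 9.1 and 9.48 against 8.08 to 8.42 (median 8.13), and rose by 0.82 ± 0.13. Nat8l, which makes N-acetylaspartate, rose by 0.56 ± 0.13 and Acvr1c, the activin receptor ALK7, by 0.49 ± 0.09. Pparg and Cebpa, the factors that hold adipocyte identity, rose by 0.30 and 0.40. The number that fell was 1 when any of several arrays or the first set of 4 was left out, and 0 without the second set. Lpl, Cd36 and Fabp4 had no call, at 0.03, 0.04 and 0.07, near the top of the array's range. Restricted mouse 1 had the lowest value of its group in 11 of the 18 genes and mouse 5 the highest in 11.

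Secreted adipocyte factors changed singly. Of 20 measured, 7 rose and 1 fell (median 0.08). Lep, which encodes the satiety hormone leptin, measured 13.7, 13.58, 13.44, 13.59 and 13.58 against 13.66 to 13.78 (median 13.71), and its difference of -0.14 ± 0.08 did not pass (adjusted p = 0.282). Its mean was 13.28 ± 0.23 (SD, n = 6) on the low-fat diet, so all 3 group means lay near the top of the array's range. Adipoq, the gene for adiponectin, measured 11.73, 11.81, 11.79, 11.77 and 11.81 against 11.24 to 11.62 (median 11.45). Adipoq rose by 0.32 ± 0.06 (adjusted p = 0.00132), with no overlap. Agt, the precursor of angiotensin, rose by 0.90 ± 0.10, Nnat, an imprinted membrane protein, by 0.88 ± 0.16, and Nrg4, an adipocyte growth factor, by 0.58 ± 0.08. Metrnl, a secreted factor made by fat and macrophages, fell by 0.83 ± 0.10.

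A list of imprinted genes and other genes tied to fat expansion had 4 of 17 genes higher, 1 lower and a median of 0.14. The calls covered 29.4% of the list, against 19% of all genes and 36.6% of those at levels of 9.13 to 14.3. The list mean was 9.88 to 9.93 in the restricted mice, above the 9.54 to 9.77 of the unrestricted mice. Plagl1, the zinc-finger regulator of the network, measured 10.2, 10.5, 10.57, 10.35 and 10.34 against 8.77 to 9.46 (median 9.24) and rose by 1.18 ± 0.14 (adjusted p = 1.75e-05). Averaging the probe sets of each gene gave 0.63 for Plagl1. Sgce, which lies beside Peg10, rose by 0.41 ± 0.07. Mest, long used as a sign of fat expansion, measured 13, 12.9, 12.92, 13.06 and 12.85 against 13.03 to 13.12, and its difference of -0.11 ± 0.22 had no call (adjusted p = 0.801). The low-fat mean of Mest was 11.45 ± 0.66 (SD, n = 6), with a spread far wider than in either high-fat group. The low-fat mice enter the fit, so their spread is part of the standard error for Mest. The gene that fell was Nrep, listed for fat expansion and not as an imprinted gene, by 0.32 ± 0.09, a call lost without restricted mouse 4 or 5 or unrestricted mouse 2 or 6.

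The mean of the fatty acid synthesis genes stayed close to the unrestricted level. It was 10.94 in the restricted, 10.87 in the unrestricted and 11.73 in the low-fat mice. Of 19 measured, 2 rose and 1 fell, with a median of 0.08. These calls covered 15.8%, against 19% of all genes and 36.6% of those at levels of 9.13 to 14.3. Over the alternatives 1 to 6 rose and 0 to 5 fell. All restricted mice were higher for 3 genes and lower for 3, against 5.42% and 8.26% of all genes. Fasn, fatty acid synthase, measured 12.96, 13.07, 13.32, 12.99 and 13.08 against 12.93 to 13.06, with a difference of 0.07 ± 0.08 (adjusted p = 0.638) and a low-fat mean of 13.86 ± 0.18 (SD, n = 6). Acaca, acetyl-CoA carboxylase, gave 0.38 ± 0.15 (adjusted p = 0.0845). Every restricted mouse was above every unrestricted one for Acaca, and it passed in some alternatives, among them without restricted mouse 1. Elovl6, the elongase of palmitate, gave 0.52 ± 0.23 (adjusted p = 0.138) against a low-fat mean of 12.03. Its restricted mice measured 9.98 to 10.82 and its unrestricted mice 9.71 to 9.87, without overlap. Elovl6 passed with the 11 arrays alone, with array weights and without the first set of 4 arrays. The low-fat mice, which enter the fit, had an SD of 0.38 for Acaca and 0.64 for Elovl6. The SD was 0.24 and 0.35 in the restricted mice and 0.07 and 0.06 in the unrestricted mice. The number that rose was 4 without restricted mouse 1, and without the first set of 4 arrays 5 rose and 5 fell. The genes that rose were Thrsp, a lipogenic nuclear protein, by 0.61 ± 0.12, and Scd1, the stearoyl-CoA desaturase, by 0.12 ± 0.03 near the top of the array's range. Scd1 ranged from 0.04 to 0.12 over the alternatives and lost its call with the mouse number as a block, with quantile normalization, with median centring and without the second set of 4 arrays. Slc25a1, the citrate carrier, fell by 0.25 ± 0.08 and lost its call when any array other than unrestricted mouse 4 was left out.

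Cholesterol synthesis genes fell instead. Of 17 measured, 12 fell and 1 rose, with a median of -0.37. Cyp51, the lanosterol demethylase, measured 8.26, 7.95, 8.01, 7.79 and 7.77 in the restricted mice and 8.34 to 9.27 (median 8.98) in the unrestricted mice. Cyp51 fell by 0.95 ± 0.19 (adjusted p = 0.00153), and the low-fat mean was 9.24 ± 0.44 (SD, n = 6). Fdps, which makes farnesyl pyrophosphate, fell by 0.68 ± 0.13, Dhcr7, the last reductase of the pathway, by 0.67 ± 0.10, and Msmo1, a sterol demethylase, by 0.61 ± 0.10. Hmgcs1, which starts the pathway, and Srebf2, its transcription factor, fell by 0.31 and 0.23. The gene that rose was Fdft1, squalene synthase, by 0.51, seen after the values were known. Restricted mouse 1 was the highest of its group for 11 of 17 genes, at a list mean of 9.43 against 9.29 to 9.32 in the other 4.

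Promoters of 14 of these genes were read, in 17 windows, for a sterol element with the letters TCACNCCA on either strand, a core bound by SREBP factors. It lay in 3 windows (17.6%), against 4.36% of all windows. All 3 are shown with the element in capitals, 60 bases before the annotated start in RefSeq GRCm38.p6, at chr13:119690189-119690248 (plus strand), chr8:64733721-64733780 (minus) and chr15:82147082-82147141 (plus). The factor's own gene, Srebf2, is among them.
Hmgcs1: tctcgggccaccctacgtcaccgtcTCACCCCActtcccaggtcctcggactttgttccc
Msmo1: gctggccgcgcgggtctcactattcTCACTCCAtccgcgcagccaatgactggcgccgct
Srebf2: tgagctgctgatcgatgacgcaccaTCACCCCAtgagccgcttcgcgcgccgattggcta
Windows without the letters, such as that of Cyp51, say nothing about binding of the factor. The excess was not particular to this element. Of the same 17 windows, 3 held the E-box CACGTG (17.6%, against 7.15% of all windows). The RORE TAGGTCA lay in 2 (11.8%, against 2.61%). The cell cycle element lay in 1 (5.88%, against 17.9%) and the D-box TTANGTAA in 0 (against 2.32%).

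Triglyceride handling shifted gene by gene. Among 20 genes that take up lipid or build triglyceride 7 rose and 4 fell, with a median of 0.03. Pck1, whose enzyme makes glycerol for re-esterification of fatty acids, measured 12.78, 13.09, 13.16, 13.15 and 13.21 in the restricted mice against 11.64 to 12.48 (median 11.95). Pck1 rose by 1.09 ± 0.13 (adjusted p = 2.34e-05), 2.12-fold, to a mean of 13.08. The low-fat mean was lower, at 12.78 ± 0.22 (SD, n = 6). Gpat3, an acyltransferase of the first step, rose by 0.53 ± 0.07. Angptl8, an insulin-induced inhibitor of lipoprotein lipase, measured 8.92, 9.4, 8.98, 8.77 and 8.54 against 9.48 to 10.23 (median 9.77). Angptl8 fell by 0.92 ± 0.25 (adjusted p = 0.0132), below a low-fat mean of 10.63 ± 0.65, and lost its call without the second set of 4 arrays. Fabp5, a fatty acid binding protein shared by macrophages, fell by 0.60 ± 0.09. Without restricted mice 1 and 2 and unrestricted mice 3 and 6 the number that fell was 2.

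Among 17 genes of lipolysis and the lipid droplet 7 rose and 3 fell, with a median of 0.15. Plin2, the droplet coat protein that macrophages also carry, fell by 0.66 ± 0.09, while the adipocyte coat proteins Plin4 and Plin1 rose by 0.35 ± 0.06 and 0.28. Hcar1, the lactate receptor that restrains lipolysis, rose by 0.53 ± 0.10 and Pde3b, the phosphodiesterase through which insulin does so, by 0.47 ± 0.06. Lipe, hormone-sensitive lipase, rose by 0.26. Pnpla2, the triglyceride lipase ATGL, did not pass, at 0.23 (adjusted p = 0.06511). Without those same 4 mice the number of this list that fell was 1.

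Genes that break down branched-chain amino acids rose, with none falling. Of 22 measured, 13 rose and the median was 0.26. Ivd, isovaleryl-CoA dehydrogenase, measured 10.56, 10.86, 10.97, 10.83 and 10.98 against 10.06 to 10.45 (median 10.28), and rose by 0.59 ± 0.08 (adjusted p = 8.5e-05). Its low-fat mean was 11.14 ± 0.10 (SD, n = 6). Aldh6a1, a dehydrogenase of valine breakdown, rose by 0.55 ± 0.08, and Bckdha and Acadsb, of the committed step and the one after it, rose by 0.43 ± 0.09 and 0.43 ± 0.06. Bcat2, the first transaminase, rose by 0.42. Restricted mouse 1 was the lowest of its group for 19 of the 22 genes, and its list mean of 10.36 lay inside the unrestricted range of 10.15 to 10.38.

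Oxidative genes moved less. Of 25 genes of fatty acid oxidation 6 rose and 1 fell (28%, against 19% of all genes), with a median of -0.01. The number that rose was 3 without unrestricted mouse 2, and 2 without restricted mouse 5 or with either set of 4 arrays left out. Acot2, a mitochondrial thioesterase, rose by 0.54 ± 0.11 and Ppara, the nuclear receptor of fasting metabolism, by 0.49 ± 0.12. Cpt1a, the carnitine transferase that admits fatty acids to mitochondria, fell by 0.23. In the TCA cycle 3 of 19 genes rose and 1 fell (median 0.03), and among 42 genes of oxidative phosphorylation 3 rose and 4 fell (median 0.02). Those shares, 21.1% and 16.7%, are close to the 19% of all genes but below the share of genes equally bright. Among all genes at levels of 9.13 to 14.3, 36.6% passed. The restricted list means of fatty acid oxidation, the TCA cycle and oxidative phosphorylation were 10.34, 11.17 and 10.65. Of 25 genes of mitochondrial biogenesis and translation 1 rose, Ppargc1a, a coactivator of that program, by 0.44 ± 0.14, and 3 fell. Its call, like those of Idh2 and Sdha of the TCA cycle and Cox5a of complex IV, was lost when 1 of several arrays was left out. Of the TCA genes 1 rose without restricted mouse 3, 4 or 5 or unrestricted mouse 2, 5 or 6, 2 oxidative phosphorylation genes fell without restricted mouse 1 or 3, 5 rose without unrestricted mouse 4, and 1 biogenesis gene fell without restricted mouse 1 or 3 or unrestricted mouse 1, 2 or 6. Restricted mouse 1 gave the lowest value of its group for 28 of the 42 oxidative phosphorylation genes and mouse 5 the highest for 21.

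Glucose genes went both ways, with 5 of 22 rising and 6 falling. Besides Slc2a4, Slc2a3, a high-affinity glucose transporter, rose by 0.60 ± 0.13 and Pdk2, a kinase that shuts pyruvate dehydrogenase, by 0.54 ± 0.11. Pfkl, the liver-type phosphofructokinase, fell by 0.48 ± 0.10, a call lost without the second set of 4 arrays. Without restricted mice 1 and 2 and unrestricted mice 3 and 6 the number that fell was 2. Pdk4, a fasting-induced sister of Pdk2, measured 11.23, 11.2, 11.08, 11.61 and 11.97 against 11.23 to 11.87 (median 11.4), and did not differ beyond its spread, at -0.02 ± 0.20 (adjusted p = 0.963).

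Of 23 insulin signalling genes measured, 10 rose and 4 fell, with a median of 0.17. Irs1, the main adapter of the insulin receptor in fat, measured 9.77, 10.19, 10.3, 10.1 and 10.13 against 9.22 to 9.73 (median 9.44). Irs1 rose by 0.65 ± 0.11 (adjusted p = 0.000331), and its low-fat mean was 10.48 ± 0.20 (SD, n = 6). With probe sets averaged Irs1 gave 0.42. Irs2 rose by 0.52 ± 0.11 to 10.67, above a low-fat mean of 10.14, and the receptor Insr and the factor Foxo1 rose by 0.38 each. Socs3 and Grb14, which dampen the receptor, fell by 0.40 ± 0.09 and 0.38 ± 0.13, the latter with a call that was lost when 1 of several arrays was left out. Without restricted mice 1 and 2 and unrestricted mice 3 and 6, 1 gene of the list fell.

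Glucocorticoid-responsive genes rose in part. Of 20 measured, 8 rose and 1 fell, with a median of 0.12. Zbtb16, a zinc-finger gene that glucocorticoids induce, measured 10.93, 11.02, 11.23, 11.55 and 11.6 against 10.03 to 10.53 (median 10.23). Zbtb16 rose by 1.02 ± 0.12 (adjusted p = 1.25e-05), and its low-fat mean was 10.89 ± 0.14 (SD, n = 6). Hsd11b1, which regenerates active glucocorticoid, and Klf9, an early target, rose by 0.50 and 0.53. Fkbp5, a chaperone of the receptor and a sensitive target, measured 8.5, 8.34, 8.9, 8.89 and 9.87 against 8.03 to 8.67 (median 8.18). Its difference of 0.66 ± 0.24 did not pass (adjusted p = 0.0666), with mouse 5 far above the rest of its group, and it passed without restricted mouse 1 or 2. Cdkn1a, the cell cycle inhibitor p21, fell by 0.73 ± 0.18. Within the restricted group this list was loose, with a larger SD than in the unrestricted mice for 17 of 20 genes and mouse 5 the highest for 12.

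Clock genes changed in opposite directions by arm. In the mammalian clock, Bmal1 (encoded by Arntl) with Clock or Npas2 drives the Per, Cry, Rev-erb and Dbp genes, whose products in turn repress it, so that the arms run in antiphase. Arntl measured 8.43, 8.3, 7.52, 8.19 and 7.65 in the restricted mice and 9.18 to 9.5 (median 9.31) in the unrestricted mice. All restricted mice were below all unrestricted ones, with mice 3 and 5 the lowest. Arntl fell by 1.31 ± 0.13 (adjusted p = 8.28e-06), and its low-fat mean was 9.60 ± 0.14 (SD, n = 6). Npas2, its partner, fell by 0.68 ± 0.13, and Nfil3, which represses D-box genes, by 0.70 ± 0.13, while Clock fell by 0.15. Of the 6 measured genes grouped with Arntl 4 fell, Bhlhe41, a repressor, rose by 0.50 ± 0.13, and Cry1 had no call at -0.03. The median was -0.42.

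The output arm mirrored this. Of 11 genes 9 rose, with a median of 0.77, the highest among the 49 lists. Dbp, a D-box activator, measured 9.62, 10.07, 10.82, 10.1 and 10.42 against 8.66 to 8.88 (median 8.73), and rose by 1.46 ± 0.15 (adjusted p = 8.37e-06). Its low-fat mean was 8.73 ± 0.21 (SD, n = 6), at the unrestricted high-fat level. Per3, a period gene, measured 8.96, 9.58, 10, 9.34 and 9.81 against 8.24 to 8.63 (median 8.36), and rose by 1.15 ± 0.14. Nr1d1 and Nr1d2, the Rev-erb repressors of Arntl, rose by 1.10 ± 0.14 and 0.95 ± 0.10. Per1 rose by 0.77 ± 0.12, Tef, another D-box activator, by 0.95, Hlf, its relative, by 0.72, Ciart, a repressor of Bmal1, by 0.74 and Cry2 by 0.35. The pair with no call were Usp2 at 0.28 and Bhlhe40 at 0.00.

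The restricted mice also differed from one another in these genes. Over the 11 output genes they averaged 9.27, 9.42, 9.87, 9.46 and 9.7, against 8.7 to 8.89 in the unrestricted mice and 8.77 to 9.07 in the low-fat mice. Mouse 3 was the highest for 8 of the 11 genes and mouse 1 the lowest for 9, and in the Arntl arm mouse 1 was the highest for 4 of 6 and mouse 3 the lowest for 4. The SD was larger than in the unrestricted mice for 9 of the 11, with a median of 0.286 against 0.131. The counts did not hang on any 1 array: with arrays left out, 9 or 10 output genes rose and 3 or 4 genes of the Arntl arm fell.

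**Figure D4:**
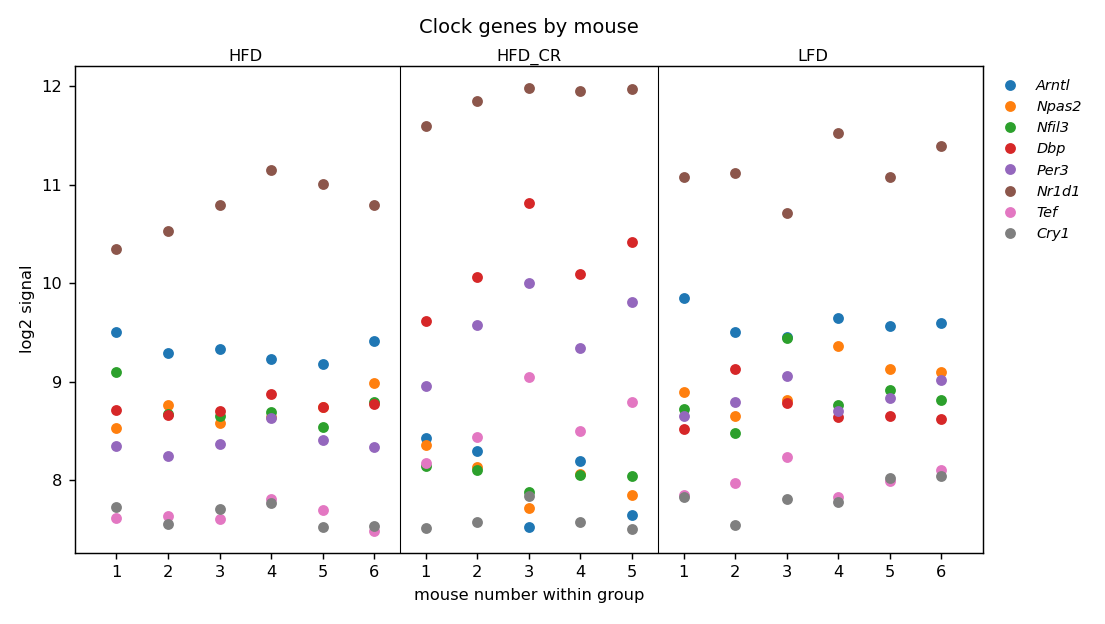
Log2 signals of 8 clock genes are plotted for each mouse, with HFD at the left, HFD_CR in the middle and LFD at the right. Arntl, Npas2 and Nfil3 drop and Dbp, Per3, Nr1d1 and Tef rise in all 5 HFD_CR mice, Cry1 stays level, and HFD_CR mouse 3 joins a low Arntl of 7.52 to a high Dbp of 10.82.

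Promoter windows of the clock genes, from the same RefSeq set, were read for 3 elements through which the arms are wired. They are the RORE (TAGGTCA, bound by Rev-erb and ROR receptors), the E-box (CACGTG, bound by Bmal1 complexes) and the D-box (TTANGTAA, bound by Dbp, Tef, Hlf and Nfil3), each on both strands. The RORE lay in 2 of 9 windows of the Arntl arm (22.2%, against 2.61% of all windows), those of Arntl and Nfil3. The E-box lay in 4 of 12 windows of 10 output genes (33.3%, against 7.15%), those of Ciart, Per1 and Tef. It also lay in 2 of 9 windows of the Arntl arm (22.2%), those of Bhlhe41, which rose, and Cry1, which had no call. The D-box lay in 1 output window, that of Per3, in 2 copies (8.33%, against 2.32%). The 5 stretches shown cover each element, with the element or its reverse complement in capitals. They lie at chr7:113207529-113207558 (plus strand, after the start), chr13:52981040-52981099 (minus), chr11:69098758-69098817 (plus), chr3:95882257-95882369 (minus) and chr4:151044806-151044895 (minus), the last 4 before the start.
Arntl: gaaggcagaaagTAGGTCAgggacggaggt
Nfil3: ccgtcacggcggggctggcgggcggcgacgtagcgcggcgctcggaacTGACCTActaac
Per1: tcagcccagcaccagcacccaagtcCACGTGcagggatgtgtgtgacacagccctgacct
Ciart: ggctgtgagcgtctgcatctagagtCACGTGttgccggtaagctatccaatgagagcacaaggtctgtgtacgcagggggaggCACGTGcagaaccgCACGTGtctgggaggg
Per3: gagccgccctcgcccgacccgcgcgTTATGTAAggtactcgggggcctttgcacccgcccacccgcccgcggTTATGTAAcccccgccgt
The first pair belong to genes that fell, by 1.31 and 0.70, and the other 3 to genes that rose, by 0.77, 0.74 and 1.15. These matches describe letters in these windows only. Elements further away, and binding, were not measured.

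Immediate early genes, which respond within minutes to growth factor and stress signals, were lower. Of 20 measured, 12 fell and 1 rose, with a median of -0.31. Atf3, a stress factor strong in macrophages, measured 9.98, 8.69, 9.02, 9.83 and 9.51 against 10.74 to 11.38 (median 10.95), and fell by 1.62 ± 0.18 (adjusted p = 1.28e-05). Fos, an AP-1 subunit, measured 8.19, 8.02, 7.43, 8.1 and 7.97 against 9 to 9.42 (median 9.22). Fos fell by 1.29 ± 0.12 (adjusted p = 3.97e-06), and its low-fat mean was 7.51 ± 0.17 (SD, n = 6). Egr2 fell by 1.18 ± 0.11 and Egr1 by 0.43 ± 0.11, while Jun had no call at -0.15. Nr4a2, an orphan receptor, rose by 0.31.

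A list that joins chaperones of the endoplasmic reticulum with genes of the unfolded protein and amino acid stress responses had 12 of 23 genes lower, 2 higher and a median of -0.23. Hspa5, the chaperone BiP, measured 9.66, 9.55, 9.42, 9.38 and 9.42 against 9.91 to 10.18 (median 10.07), and fell by 0.57 ± 0.07 (adjusted p = 2.45e-05). Mthfd2, a mitochondrial folate enzyme induced by amino acid stress, fell by 0.76 ± 0.08 and Sdf2l1, a BiP cofactor, by 0.69 ± 0.17, a call lost without the second set of 4 arrays. The serine and asparagine enzymes Phgdh and Asns rose by 0.42 and 0.38. Of 13 cytosolic heat shock genes 4 fell and 1 rose, led by Hsph1, a chaperone of the Hsp110 kind, at -0.71 ± 0.12.

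Of 23 genes of oxidative stress and glutathione measured, 8 rose and 7 fell, and the median was -0.01. Gsta3, a glutathione transferase, measured 9.84, 10.41, 10.34, 10.24 and 10.2 against 8.82 to 9.23 (median 9.08), and rose by 1.17 ± 0.10 (adjusted p = 2.91e-06). Its relatives Gsta4 and Gstt1, which detoxify lipid aldehydes and small electrophiles, rose by 0.98 ± 0.14 and 0.80 ± 0.09. Hmox1, the heme oxygenase that macrophages induce, measured 10.14, 9.81, 10.04, 10 and 9.96 against 10.47 to 11.11 (median 10.84), and fell by 0.84 ± 0.11. Srxn1 and Txnrd1, of the thioredoxin system, fell by 0.46 and 0.38. Without restricted mice 1 and 2 and unrestricted mice 3 and 6, 5 genes rose and 4 fell.

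Vessel and hypoxia genes gave smaller values. Of 21 endothelial and angiogenic genes 5 rose and 1 fell (median 0.11), and 3 rose without restricted mouse 5. The calls covered 28.6% of this list, whose mean was 9.9 in the restricted mice. Of all genes 19% passed, and 36.6% of those at levels of 9.13 to 14.3. The gene that fell, Aplnr, a peptide receptor, gave -0.54 ± 0.17 and lost its call without restricted mouse 3, 4 or 5, unrestricted mouse 2, 4, 5 or 6 or the second set of 4 arrays. Vegfa and Vegfb, the vascular growth factors, rose by 0.39 ± 0.06 and 0.38 ± 0.07, while the endothelial markers Pecam1 and Cdh5 had no call, at 0.09 and 0.14. Of 19 hypoxia genes 4 rose and 4 fell (median -0.02), with Ndrg1, a stress-responsive gene, highest at 0.84 ± 0.10 and Hif1a, the hypoxia factor, at -0.34.

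The calls among thermogenic genes had no common direction. Of 15 measured, 2 rose and 2 fell, with a median of -0.12. These calls covered 26.7%, against 19% of all genes and 27.1% of those at levels of 7.53 to 9.13. The low-fat mice, which enter the fit, had an SD of 2.27 for Ucp1 and 0.8 for Otop1. The SD was 0.82 and 0.39 in the restricted mice and 1.01 and 0.14 in the unrestricted mice. The calls of Dio2, which activates thyroid hormone, and Ppargc1a were lost when 1 of several arrays was left out, those of Otop1 and Ebf2 in no such case, although Otop1 lost its call without the second set of 4 arrays. Dio2 was below the array medians, and its difference of -0.41 became 0.02 once lower signals were raised to them. Ucp1, by which brown and beige adipocytes make heat, measured 6.6, 6.62, 6.17, 7.36 and 8.26 against 6.82 to 9.53 (median 7.83). The groups overlapped, and the difference of -0.99 ± 0.84 did not pass (adjusted p = 0.496). The low-fat mean of Ucp1 was 9.89 ± 2.27 (SD, n = 6). Otop1, a proton channel, fell by 1.09 ± 0.29.

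Plasma protein genes went both ways, with 5 of 17 rising, 3 falling and a median of 0.06. Besides Orm3, Alb, which encodes albumin, rose by 1.19 ± 0.21 to 9.32, with a low-fat mean of 10.49 and an overlap of 1 mouse, unrestricted mouse 5 at 8.89. Saa3, the serum amyloid that fat makes in inflammation, measured 9.65, 10.8, 9.02, 9.07 and 9.24 against 10.81 to 11.8 (median 11.1). Saa3 fell by 1.62 ± 0.28 (adjusted p = 0.000483), and mouse 2, high for this gene, came within 0.01 of the lowest unrestricted mouse. Hp, haptoglobin, fell by 0.70. The number that rose was 3 without restricted mouse 3.

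Neighbouring tissues were checked by their markers. None of 18 skeletal muscle, 12 smooth muscle, 11 nerve and 19 gland genes passed in the limma fit, where 1, 1, 0 and 0 had an unadjusted p under 0.05, and the median differences were 0.18, 0.05, -0.01 and -0.03. Myl1, a fast muscle myosin light chain, measured 9.7, 10.46, 9.75, 9.69 and 9.84 against 9.29 to 9.77, high in restricted mouse 2 (adjusted p = 0.082). Of 14 germ cell genes Odf1, a sperm tail gene, fell by 0.17 ± 0.05, a call lost without restricted mouse 2 or either set of 4 arrays, though it gave 0.21 when probe sets were averaged, and the other 13 had no call and a range from 0.07 to 1.30. In all 8 of the 14 had an unadjusted p under 0.05. Smcp, a sperm mitochondrial protein, was 10.32 in restricted mouse 1 and 6.88 to 7.51 in the other 4. Mesothelium, the lining that covers the fat pad, showed a rise in 6 of 12 genes with a median of 0.50. Rspo1, a Wnt agonist made there, measured 10.53, 10.31, 10.57, 10.17 and 9.9 against 9.33 to 9.89 (median 9.65), and rose by 0.70 ± 0.13 (adjusted p = 0.000699), a call lost without the second set of 4 arrays. The mesothelial mean was 8.66 in restricted mouse 5, inside the unrestricted range of 8.44 to 8.94, and 8.99 to 9.43 in the other 4. The count was unstable, at 1 without restricted mouse 1 or 3, 2 without restricted mouse 2 or unrestricted mouse 1, 2, 3 or 6, and 3 without restricted mouse 4, with 1 or 0 when either set of 4 arrays was left out. Upk1b and Upk3b, uroplakins listed for urothelium, rose by 0.74 ± 0.20 and 0.64 ± 0.18. Upk3b is also in the mesothelial list and is counted in both. Of these calls 1 was left without restricted mouse 1 or 3 or the first set of 4 arrays and 0 without the second. The urothelial genes Upk2 and Krt20 had no call at 0.03 and 0.01.

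Read as a whole, 36 of the 49 lists had a larger share of called genes than the 19% of all genes, 13 had a median under -0.2 and 5 a median over 0.2. Calls also depended on brightness, and 36.6% of all genes at levels of 9.13 to 14.3 passed. A share above 19% therefore does not by itself set a list of bright genes apart. The lists overlap and were not chosen at random, so these counts describe the lists and nothing beyond them.

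**Figure D5:**
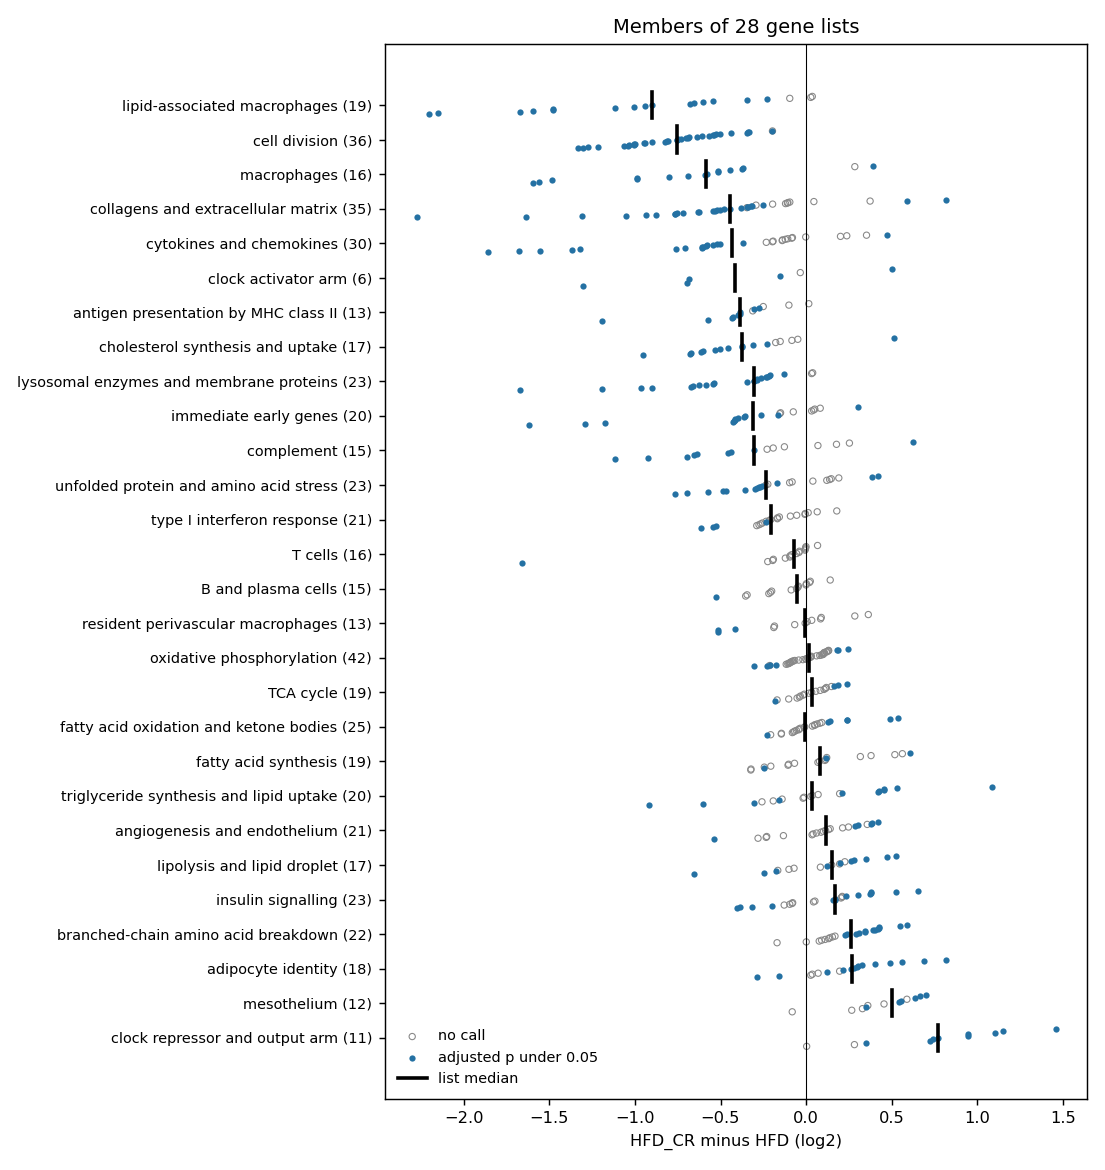
Each point is a gene in 1 of 28 of the lists, with its log2 difference HFD_CR minus HFD on the x axis, filled where its adjusted p was under 0.05 and open where it had no call, and a bar marks the list median. Numbers beside the names count measured genes. Medians run from -0.90 for lipid-associated macrophages to 0.77 for the clock repressor and output arm.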

How the data were processed

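RNA of periprostatic fat from 17 mice was measured, 1 array per mouse, and per the labels' protocols only RNA with an integrity number above a set minimum was used. The authors deposited log2 signals of probe sets. The tools listed in the submitters' processing notes are RMA, limma and R 3.5.0, without their roles. Of 33793 probe sets, 23521 had 1 symbol, 1814 several and 8458 none, and the brightest of each gene left 22180 genes. No filter or rescaling was applied. A model of 3 group means, fitted to the 17 arrays (limma 3.58.1, R 4.3.3), gave the contrast HFD_CR minus HFD, with Benjamini-Hochberg adjustment at 0.05. P-values set each difference against the spread of mice within their groups, estimated from all 17 arrays, the low-fat mice included. Figures were drawn with matplotlib 3.10.9.

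The members and the 49 lists (934 genes, 855 measured) were chosen with earlier results of these data known, and genes not measured were not analysed here. Genes were named by a rule: the 12 largest rises and falls, up to 4 called members per list (or the 2 with the smallest p), and 18 set genes, with predicted genes, small RNAs, receptor segments and odorant-type receptors left out of the first kind. Other genes named were chosen after their values were seen. Alternatives were leaving out each array, leaving out 4 arrays with other tissue in either of 2 sets, the mouse number as a block, the 11 arrays alone, dim genes removed, probe sets averaged or tested singly, quantile normalization, median centring, eBayes with trend, array weights, muscle and gland covariates and stricter thresholds. Mouse numbers were checked for pairing by the correlation of deviations of same-numbered mice.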

Additional observations from a re-analysis of the deposited data

Results flagged for a closer look

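For 184 genes and 49 list means, the lowest and highest mouse of each group of 5 or 6 was compared with the rest of its group by Dixon's ratio. Of 466 groups tested, 28 (6%) held a mouse far from the others, and chance gives about 1 in 20. Among restricted mice, mouse 1 stood apart for Timp1 (8.11), Pck1 (12.78), Ccna2 (8.42) and the list means of cholesterol synthesis (9.43), macrophages (9.9), angiogenesis and endothelium (9.82) and male germ cells (9.21). Mouse 2 stood apart for Sly (6.95), C5ar1 (8.03), Myl1 (10.46) and the skeletal muscle mean (9.15), and mouse 3 for Fos (7.43). Among unrestricted mice, mouse 1 stood apart for Socs3 (8.46) and the means of fatty acid synthesis (10.93), glucocorticoid targets (9.8) and acute phase genes (9.4). Mouse 3 did so for Msmb (8.46) and the gland epithelium mean (7.17), and mouse 4 for Fasn (12.93) and Pdk4 (11.87). Mouse 5 did so for Alb (8.89), Bhlhe41 (7.49), Gfra3 (7.74), Klf1 (7.09) and the erythroid mean (7.48), and mouse 6 for Hsp90aa1 (9.33), Actn3 (9.31) and the skeletal muscle mean (8.11). The changes of called genes named here kept their direction without the mouse in question.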

How the results depend on the processing

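The main counts were 1705 genes higher and 2508 lower. Leaving out 1 array at a time gave 1297 to 1792 higher and 2000 to 2836 lower. Leaving out restricted mice 1 and 2 with unrestricted mice 3 and 6 gave 951 and 1405, array weights gave 2630 and 3514, a 1.5-fold minimum gave 190 and 504, and an adjusted p under 0.01 gave 965 and 1610. No gene called in the main counts was called in the opposite direction under any of these settings. Rises made up 40.5% of calls, 46.7% with quantile normalization (2081 higher, 2378 lower) and 33.8% with median centring (1323 and 2588). The mouse number as a block gave 1616 and 2394. Deviations of same-numbered mice correlated between -0.11 and 0.14, and 1 of 5 restricted mice correlated best with its own number, so the numbers give no pairing. Of 184 named genes, 166 were called, and 88 of them kept the call under all 25 alternatives and 129 under the 23 without a stricter threshold. Odf1 turned from -0.17 to 0.21 with probe sets averaged, where it had no call (adjusted p = 0.271), and the cause was not tested. Of the genes without a call 7 gained one under some alternative. The number of arrays limits precision, and signals below the array medians give uncertain sizes.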
